A study of Rattus norvegicus with 5 samples.

Results

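Fibrillar collagens and the proteins that fibroblasts lay down with them were followed through cultures made to study TRH neurons. The genes taken were *Col1a1*, *Col1a2*, *Col3a1*, *Fstl1*, *Bgn*, *Postn*, *Sparc*, *Dcn*, *Fn1* and *Lum*. Every probe set of the array whose only gene symbol is one of these 10 was included, which gave 26 of the 8740 probe sets analysed, for 10 of the 4736 genes with such a symbol. *Col1a2*, *Postn* and *Lum* have 1 probe set each, and the other 7 genes have several. The cells came from the hypothalamus of Wistar rat embryos at day 17 and were grown as primary cultures. GFP+ cells (2 arrays) had been transfected 24 h after seeding with GFP under a minimal *Trh* promoter and were sorted for fluorescence 48 h later. GFP+/- cells (2 arrays) were transfected in the same way and passed through the sorter with no selection. NT cells (1 array) were never transfected. GFP marks the cells in which that promoter fragment is active and not TRH peptide, RNA of each population was pooled from several cultures, and no population carried a mutation. By the methods, one pool of RNA supplied both arrays of a population, although the labels name them biological replicates, and every p-value therefore measures the spread between arrays only.

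Type I collagen is built from the *Col1a1* and *Col1a2* chains and forms the thick fibrils of connective tissue, and type III collagen, a trimer of *Col3a1* chains, joins it in softer tissues. The small leucine-rich proteoglycans biglycan, decorin and lumican bind the fibrils, fibronectin links them to integrins, and SPARC and periostin act on their assembly. In the brain most of these proteins are made mainly by cells of the meninges and of vessel walls, and little by neurons, while glia also make SPARC. Primary cultures of embryonic brain can carry such cells along.

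The first question was how much of this matrix programme remained in the cells sorted by *Trh* promoter activity. The signal of a probe set is a linear MAS 5.0 intensity, and the authors' scaling left a trimmed mean of about 501 on each array. The brightest *Col1a1* probe set (M27207mRNA_s_at) gave 2181 and 4819 on the GFP+ arrays, 13508 and 13098 on the GFP+/- arrays and 3468 on the NT array. Both GFP+ values lay under both GFP+/- values, at 16.4% and 36.2% of the GFP+/- mean, and the NT value lay between the GFP+ values. The log2 difference of GFP+ minus GFP+/- cells was -2.04 (SE 0.38; limma, adjusted p = 0.152 over all 8740 probe sets). Both further bright probe sets, drawn from one sequence, also had GFP+ under GFP+/- arrays without overlap, but with NT cells above both GFP+ arrays. Z78279_g_at gave 973 and 3610 in GFP+, against 7115 and 8743 in GFP+/- and 3735 in NT cells, and Z78279_at gave 308 and 1178 in GFP+, against 1748 and 1880 in GFP+/- and 1369 in NT cells. Their log2 differences were -2.07 (SE 0.59) and -1.59 (SE 0.59). A dim *Col1a1* probe set lay between 95.3 and 208 over the 5 arrays.

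*Col1a2*, the second chain of type I collagen, has 1 probe set. It gave 1686 and 4138 in GFP+, against 9100 and 10016 in GFP+/- and 3834 in NT cells. As for the brightest *Col1a1* probe set, GFP+ and GFP+/- arrays did not overlap and NT cells lay between the 2 GFP+ arrays. The log2 difference of GFP+ minus GFP+/- cells was -1.85 (SE 0.42; limma, adjusted p = 0.184).

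*Col3a1* differed from the type I chains in where NT cells stood. Its bright probe set (X70369_s_at) gave 182 and 364 in GFP+, against 987 and 995 in GFP+/- and 1318 in NT cells. The GFP+ arrays lay at 18.4% and 36.7% of the GFP+/- mean (log2 difference -1.95, SE 0.34; limma, adjusted p = 0.145), shares close to those of *Col1a1*, but NT cells had the highest signal of all 5 arrays. The second *Col3a1* probe set (M21354_s_at) was dim, with 91.5 and 164 in GFP+, against 78.9 and 140 in GFP+/- and 331 in NT cells. Here GFP+ and GFP+/- arrays overlapped (log2 difference 0.22, SE 0.43), while NT cells were again the highest. The probe sets of *Col3a1* thus disagreed on GFP+ against GFP+/- cells.

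Promoter sequences are shown here for genes of both orders, *Col1a2*, *Postn* and *Fstl1*, which were highest in GFP+/- cells, and *Lum*, which was highest in NT cells. A window before the RefSeq start (assembly GRCr8) was given for 5 of the 10 genes: *Col1a2*, *Fstl1*, *Postn*, *Sparc* and *Lum*. The 250 bases before each start were searched on both strands for the CCAAT box (spelled CCAAT), the TATA box (spelled TATAAA) and the GC box (spelled GGGCGG), whose matches did not overlap here. Of 33469 rat promoter windows, 34% hold the CCAAT box, 12.9% the TATA box and 30.5% the GC box. Capitals mark the matches, and a CCAAT box on the reverse strand reads ATTGG. The *Col1a2* sequence covers 250 to 141 bases before the start, and those of *Postn*, *Fstl1* and *Lum* cover 150 to 1. The sequences run 5′ to 3′ on the gene's strand, over chr4:33518307-33518416 (+) for *Col1a2*, chr2:140677911-140678060 (+) for *Postn*, chr11:76454054-76454203 (-) for *Fstl1* and chr7:34245556-34245705 (+) for *Lum*.
Col1a2: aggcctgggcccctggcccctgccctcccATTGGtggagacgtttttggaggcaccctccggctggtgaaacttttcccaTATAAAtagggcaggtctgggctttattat
Postn: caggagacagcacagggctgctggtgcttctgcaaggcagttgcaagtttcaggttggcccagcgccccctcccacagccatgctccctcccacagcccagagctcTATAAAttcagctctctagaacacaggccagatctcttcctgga
Fstl1: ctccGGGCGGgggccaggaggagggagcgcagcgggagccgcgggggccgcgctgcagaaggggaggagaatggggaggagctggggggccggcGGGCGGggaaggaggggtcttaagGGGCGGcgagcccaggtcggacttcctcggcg
Lum: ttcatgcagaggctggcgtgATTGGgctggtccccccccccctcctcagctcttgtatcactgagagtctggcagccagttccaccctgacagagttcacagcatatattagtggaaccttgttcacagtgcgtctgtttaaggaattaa
*Col1a2* has 1 CCAAT box and 1 TATA box, *Postn* has 1 TATA box, *Fstl1* has 3 GC boxes and *Lum* has 1 CCAAT box, both CCAAT boxes being on the reverse strand. The *Sparc* window holds 0 matches to the 3 motifs. Each match is a description of letters and not of a site in use.

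**Figure D1:**
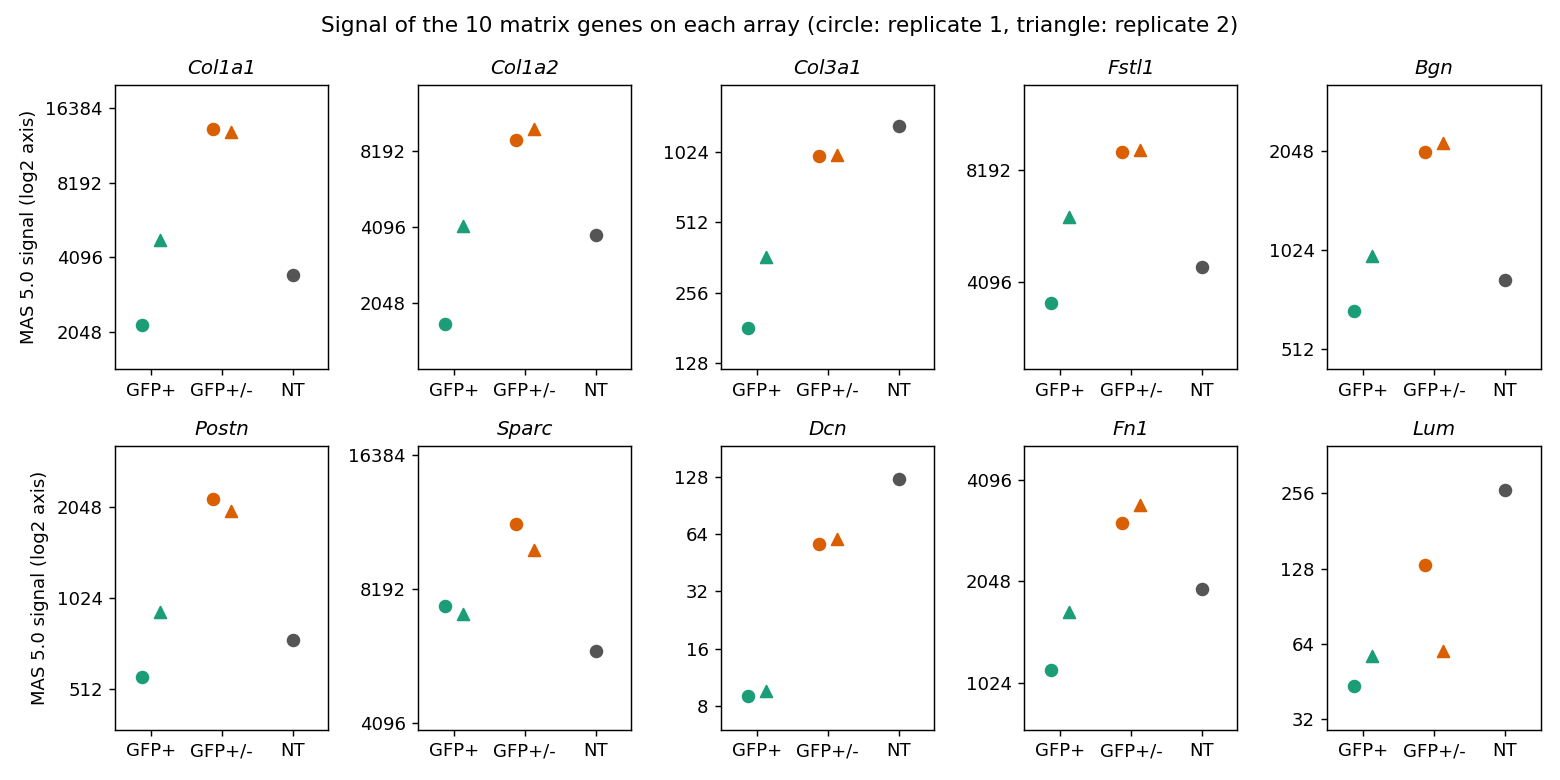
MAS 5.0 signal (log2 axis, one scale per panel) of the brightest probe set of each of the 10 genes in GFP+, GFP+/- and NT cells, with a circle for replicate 1 and a triangle for replicate 2. In all 10 panels both GFP+ points lie under both GFP+/- points, and in 3 of them (*Col3a1*, *Dcn*, *Lum*) NT cells are the highest.

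*Fstl1* encodes a secreted glycoprotein of mesenchymal cells and, by the authors' account, of astroglia. It gave 3579 and 6098 in GFP+, against 9170 and 9237 in GFP+/- and 4497 in NT cells with its bright probe set (rc_AA849769_g_at). The GFP+ arrays lay at 38.9% and 66.3% of the GFP+/- mean (log2 difference -0.98, SE 0.28; limma, adjusted p = 0.252). The other probe set of the same sequence (rc_AA849769_at) gave 134 and 273 in GFP+, against 645 and 760 in GFP+/- and 535 in NT cells, with a log2 difference of -1.88 (SE 0.36; limma, adjusted p = 0.154). Both probe sets put GFP+ under GFP+/- cells without overlap. They disagreed on NT cells, which lay between the GFP+ arrays with the first and above both with the second.

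*Bgn*, which encodes biglycan, gave 667 and 980 in GFP+, against 2024 and 2160 in GFP+/- and 828 in NT cells. *Postn*, which encodes the matricellular protein periostin, gave 562 and 921 in GFP+, against 2182 and 1983 in GFP+/- and 740 in NT cells. In both genes the GFP+/- arrays stood above the other 3, and the NT array lay between the GFP+ arrays. The log2 differences of GFP+ minus GFP+/- cells were -1.37 (SE 0.23; limma, adjusted p = 0.145) for *Bgn* and -1.53 (SE 0.26; limma, adjusted p = 0.145) for *Postn*. A second, dim *Bgn* probe set lay between 45.9 and 102, with overlap.

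*Fn1*, which encodes fibronectin, gave 1113 and 1659 in GFP+, against 3044 and 3450 in GFP+/- and 1941 in NT cells with its bright probe set. GFP+ arrays were under NT cells here as well as under GFP+/- cells (log2 difference of GFP+ minus GFP+/- cells -1.25, SE 0.23; limma, adjusted p = 0.152). The other 4 *Fn1* probe sets were dim, between 11.4 and 131 over all arrays.

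*Sparc*, a collagen-binding glycoprotein that glia and vessels also make, had the smallest difference among the brightest probe sets of the 10 genes. It gave 7520 and 7197 in GFP+, against 11489 and 10052 in GFP+/- and 5939 in NT cells, so that GFP+ cells lay between the other populations at 69.8% and 66.8% of the GFP+/- mean (log2 difference -0.55, SE 0.19; limma, adjusted p = 0.294). Its other bright probe sets gave 623 and 750 in GFP+, against 1038 and 732 in GFP+/- and 586 in NT cells (rc_AA946313_s_at, overlapping), and 172 and 196 in GFP+, against 216 and 243 in GFP+/- and 270 in NT cells (Y13714_at). The fourth was dim, between 3.04 and 26.9.

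The proteoglycan genes *Dcn* (decorin) and *Lum* (lumican), usual fibroblast markers, had no probe set among the brightest 41% of the array. The brightest of 4 *Dcn* probe sets (rc_AI639233_s_at) gave 9.02 and 9.56 in GFP+, against 57.0 and 60.3 in GFP+/- and 124 in NT cells. Both GFP+ arrays were far under the GFP+/- arrays and NT cells were the highest (log2 difference of GFP+ minus GFP+/- cells -2.66, SE 0.44; limma, adjusted p = 0.144). The GFP+ and GFP+/- signals lie under the median of every array, while the NT signal lies above it. The size therefore depends on the scale, and with 16 added to each signal the log2 difference was -1.56. The other 3 *Dcn* probe sets lay between 1.35 and 57.3 and overlapped. *Lum* gave 43.4 and 57.3 in GFP+, against 132 and 59.7 in GFP+/- and 265 in NT cells. Both GFP+ arrays were under both GFP+/- arrays, but the second arrays of the populations lay close together (log2 difference of the means -0.83, SE 0.48; limma, adjusted p = 0.513).

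Counted over all members, 17 of 26 probe sets had both GFP+ arrays under both GFP+/- arrays, against 15.4% of all probe sets, and 0 of 26 had them above, against 30.4%. At least 1 probe set of each of the 10 genes was among the 17. With limma's adjusted p over all probe sets 0 of 26 were called lower, as were 0.0% of all 8740, and at an unadjusted p under 0.05 it was 12 of 26, against 4.75%. The median log2 difference was -0.90 over the 26 probe sets and -1.45 over the brightest probe set of each gene, beside 0.13 over all probe sets. A fit limited to the brightest 41% of probe sets (mean signal above 175, 3583 in all) took in 13 members and called 8 of them lower, among 1.79% of its probe sets. These 8 belong to *Col1a1*, *Col1a2*, *Col3a1*, *Fstl1*, *Bgn*, *Postn* and *Fn1*. Since members entered that fit partly through the arrays on which they were high, the count is a description only, and without GFP+ replicate 1 it was 0 of 13. In RNA of mixed cells, fewer cells of a type and less RNA per cell cannot be told apart.

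The GFP+ arrays were not alike. Replicate 1 was under replicate 2 in 21 of 26 member probe sets, against 4553 of all 8740, and in 12 of the 13 bright ones, against 1727 of 3583. For the GFP+/- pair it was 18 of 26, against 4613 of 8740, and 9 of 13, against 1775 of 3583. The gap exceeded 1.5-fold in 8 of 13, against 7.56% of the bright probe sets, whereas GFP+/- replicate 1 was under replicate 2 by that much in 0 of 13, against 4.91%. Over the 13, the median log2 ratio of replicate 1 to replicate 2 was -0.77 for GFP+ and -0.094 for GFP+/- cells, beside 0.016 and 0.0036 over all bright probe sets. The ratio of GFP+ replicate 2 to replicate 1 ran up to 3.82 in the 13 and was 0.957 in the only one below 1, the brightest of *Sparc*. The difference between GFP+ and GFP+/- cells was of the same sign on each GFP+ array in every one of the 13. The median of the 26 probe sets was -1.06 with GFP+ replicate 1 alone and -0.64 with GFP+ replicate 2 alone.

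**Figure D2:**
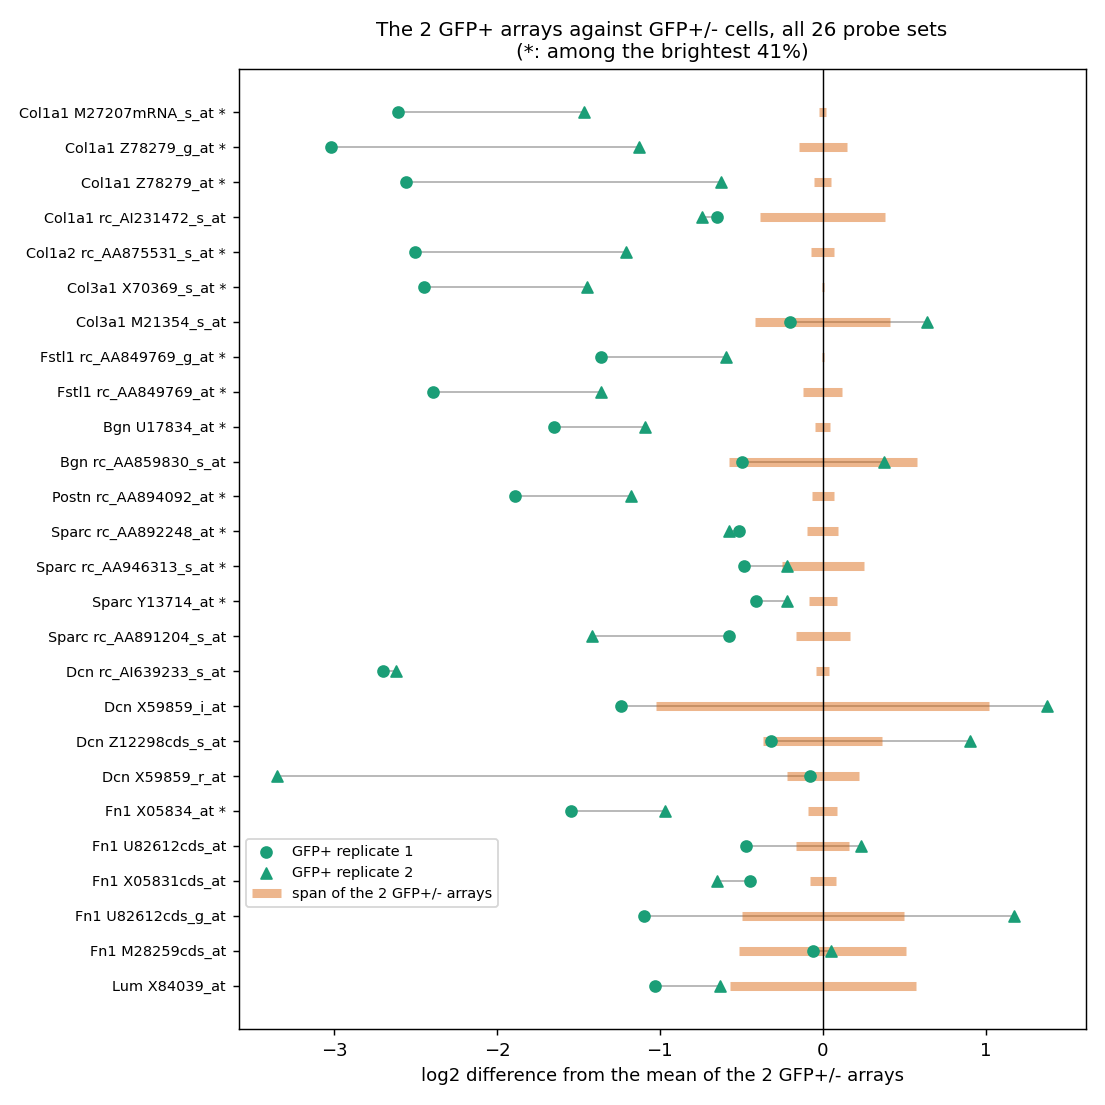
Log2 signal of GFP+ replicate 1 (circle) and replicate 2 (triangle) minus the mean of the 2 GFP+/- arrays, whose span is the orange bar, for all 26 probe sets, with asterisks on the 13 bright ones. Both GFP+ points lie left of the bar in 17 rows, and the circle lies left of the triangle in 21.

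GFP+ cells were then set against NT cells, which asks how sorted cells compare with cells that had not been transfected. With limma's adjusted p, 2 of 26 probe sets were lower in GFP+ cells, against 4.06% of all probe sets. They were the bright *Col3a1* probe set (log2 difference -2.36, SE 0.41; limma, adjusted p = 0.0301) and the brightest of *Dcn* (log2 difference -3.74, SE 0.53; limma, adjusted p = 0.0192), which was -2.47 with 16 added to each signal. At an unadjusted p under 0.05 there were 6 of 26, against 11.4%. The other 4 were the second probe sets of *Col3a1* and *Fstl1*, the dim one of *Sparc*, and *Lum*. *Lum* had a log2 difference of -2.41 (SE 0.58; limma, adjusted p = 0.0649). For the brightest probe sets of the genes highest in GFP+/- cells, which did not pass the test, the log2 differences of GFP+ minus NT cells were -0.10 (SE 0.46) for *Col1a1*, -0.54 (SE 0.51) for *Col1a2*, 0.05 (SE 0.35) for *Fstl1*, -0.03 (SE 0.28) for *Bgn*, -0.04 (SE 0.32) for *Postn*, 0.31 (SE 0.23) for *Sparc* and -0.51 (SE 0.29) for *Fn1*. The first 5 of these had NT cells between the 2 GFP+ arrays, and without GFP+ replicate 1 all 5 were above NT cells, at 0.47, 0.11, 0.44, 0.24 and 0.32. Other bright probe sets of the same genes gave lower values, with -0.995 (SE 0.72) and -1.19 (SE 0.73) for *Col1a1* and -1.49 (SE 0.44; limma, adjusted p = 0.103, and 0.0148 among the bright probe sets) for *Fstl1*. The 2 calls rest on all 5 arrays, and the single NT array has no replicate. With a GFP+/- array left out, the log2 differences stayed at -2.36 and -3.74, but 1 residual degree of freedom remained in place of 2. With a GFP+ array left out, they ran from -2.86 to -1.86 for *Col3a1* and from -3.79 to -3.70 for *Dcn*.

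The remaining comparison, GFP+/- against NT cells, sets transfected cells that passed the sorter unselected against non-transfected cells, for which passage through the sorter is not given in the sources used here. In 7 of the 10 genes both GFP+/- arrays were above the single NT array with the brightest probe set. The share of all probe sets with that order was not counted, so the 7 are a description only. Among the other bright probe sets of these genes, *Sparc* Y13714_at went the other way, with 216 and 243 in GFP+/- against 270 in NT cells. *Bgn* (log2 difference 1.34, SE 0.28; limma, adjusted p = 0.0412) and *Postn* (log2 difference 1.49, SE 0.32; limma, adjusted p = 0.0470) rose in GFP+/- cells. These were 2 of 26 probe sets, against 4.20% of all called higher. *Col1a1* had a log2 difference of 1.94 (SE 0.46; limma, adjusted p = 0.0596), *Col1a2* of 1.32 (SE 0.51; limma, adjusted p = 0.187), *Fstl1* of 1.03 (SE 0.35), *Sparc* of 0.86 (SE 0.23) and *Fn1* of 0.74 (SE 0.29). At an unadjusted p under 0.05, 7 of 26 were higher (all probe sets 11.4%) and 3 were lower (all probe sets 13.5%), the 3 being the dim probe sets of *Col3a1* and *Sparc* and *Lum*. Among the bright probe sets 6 of 13 were called higher, against 16.4%. This count too is a description only, since members entered that fit partly through the arrays on which they were high. *Col3a1* ran the other way with its bright probe set (log2 difference -0.41, SE 0.41), as did *Dcn* (-1.08, SE 0.53) and *Lum* (-1.58, SE 0.58). The NT array was the highest of the 5 in 7 of 26 probe sets, against 28.9%. The calls for *Bgn* and *Postn* rest on both GFP+/- arrays. With either left out, 1 residual degree of freedom remained, and the log2 differences ran from 1.29 to 1.38 for *Bgn* and from 1.42 to 1.56 for *Postn*.

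**Figure D3:**
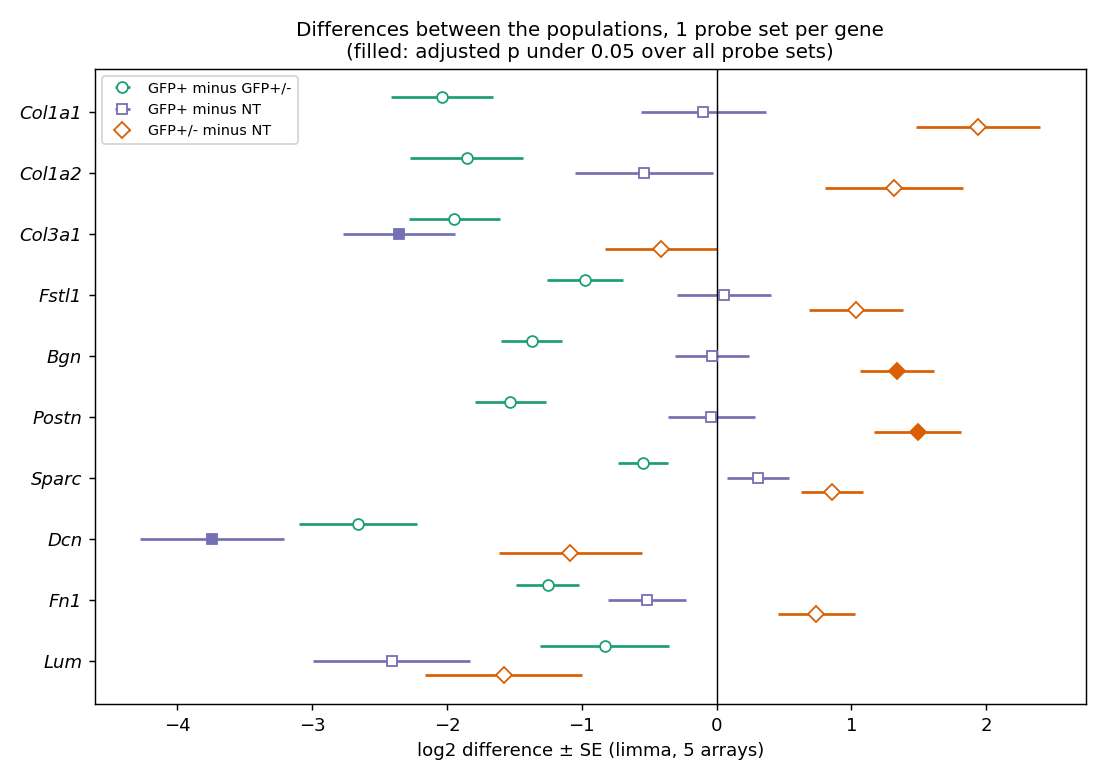
Log2 difference ± SE (limma, 5 arrays) for the brightest probe set of each gene, as GFP+ minus GFP+/- (circles), GFP+ minus NT (squares) and GFP+/- minus NT (diamonds), with filled symbols for an adjusted p under 0.05 over all probe sets. All circles lie left of 0, and the diamonds lie right of 0 in 7 genes and left of it for *Col3a1*, *Dcn* and *Lum*.

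RNA quality moved most with the last 2 comparisons. The ratio of the signals of the 3′ to the 5′ *Gapdh* control probe sets was 14.6 and 17.6 in GFP+, against 12.7 and 14.2 in GFP+/- and 5.45 in NT cells. For actin it was 22.9 and 18.7 in GFP+, against 31.4 and 14.4 in GFP+/- and 10.9 in NT cells. Both ratios were lowest in NT cells. That of *Gapdh* was also higher on both GFP+ arrays than on both GFP+/- arrays. That of actin overlapped between these populations and differed between the GFP+/- arrays. The part of both ratios in the differences was not tested. Array medians were 114 and 116 in GFP+, against 102 and 104 in GFP+/- and 112 in NT cells.

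The brightest probe sets of the 10 genes were each centred on their own mean log2 signal, and the median over the genes on each of the 5 arrays was taken as their pattern. It stood at -0.996 and -0.27 in GFP+, against 0.73 and 0.79 in GFP+/- and -0.37 in NT cells. *Bgn* lay nearest to this pattern (Euclidean distance 0.24 over 5 arrays) and *Dcn* farthest (2.88). Of 2938 bright probe sets of other genes, with a median distance of 1.76, the 5 nearest were *Tagln* (0.29), *Itga1* (0.39), *Igf2* (0.40), *Ywhae* (0.44) and *Pdlim1* (0.47). *Tagln*, an actin-binding protein of smooth muscle, gave 629 and 942 in GFP+, against 2137 and 1835 in GFP+/- and 792 in NT cells. *Itga1*, an integrin chain that binds collagen, gave 216 and 286 in GFP+, against 605 and 539 in GFP+/- and 240 in NT cells. *Igf2*, a growth factor of meninges and choroid plexus, gave 386 and 620 in GFP+, against 1413 and 1233 in GFP+/- and 781 in NT cells. These likenesses describe 5 arrays only.

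Other matrix genes were taken as lists, and their counts under and above the GFP+/- arrays stand against 15.4% and 30.4% of all probe sets. Of 24 other collagens 11 were measured, of which 2 lay under and 4 above the GFP+/- arrays, and their median log2 difference was 0.097. *Col5a2*, a chain of the type V collagen that fibrils of type I contain, was one of the 2, with 1191 and 1192 in GFP+, against 2531 and 2614 in GFP+/- and 1654 in NT cells (log2 difference -1.11; limma, adjusted p = 0.126, and 0.0142 among the bright probe sets). *Col5a1* gave 357 and 342 in GFP+, against 329 and 311 in GFP+/- and 366 in NT cells. *Col5a1*, the partner chain of *Col5a2* in type V collagen, thus varied little (log2 difference of GFP+ minus GFP+/- cells 0.13, SE 0.19).

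Enzymes and chaperones of collagen processing had a median of -0.43 over 11 of 20 genes, with 5 under and 1 above the GFP+/- arrays. *Serpinh1*, the collagen chaperone of the endoplasmic reticulum, gave 282 and 577 in GFP+, against 1253 and 1162 in GFP+/- and 1380 in NT cells, the order seen for *Col3a1* (log2 difference of GFP+ minus GFP+/- cells -1.58; limma, adjusted p = 0.177). *Loxl1*, of the lysyl oxidase family that cross-links collagen and elastin, gave 576 and 699 in GFP+, against 1874 and 1331 in GFP+/- and 476 in NT cells, and rose in GFP+/- against NT cells (log2 difference 1.73; limma, adjusted p = 0.0249). *Serpinh1* and *Loxl1* had the lowest log2 differences of GFP+ minus GFP+/- cells among the 11. For the brighter *Ppib*, *Plod3* and *P4ha1* these were -0.51, 0.026 and -0.43, and *Plod3* overlapped. *P4hb*, a subunit of prolyl 4-hydroxylase with wider use in protein folding, gave 13450 and 11626 in GFP+, against 11915 and 10380 in GFP+/- and 6813 in NT cells.

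Other matrix glycoproteins and proteoglycans had a median of -0.10 over 19 of 35 genes, with 4 under and 8 above. *Mgp*, a matrix protein that inhibits calcification, gave 637 and 2542 in GFP+, against 4100 and 4546 in GFP+/- and 627 in NT cells, with the GFP+ arrays far apart. *Spp1* (osteopontin) gave 147 and 127 in GFP+, against 258 and 261 in GFP+/- and 1089 in NT cells, and fell in GFP+ against NT cells (log2 difference -3.00; limma, adjusted p = 0.00808). *Sparcl1*, a *Sparc* relative made by astrocytes and neurons, gave 5095 and 4115 in GFP+, against 3253 and 2795 in GFP+/- and 4233 in NT cells.

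Basement membrane genes had a median of 0.19 (8 of 14 measured), matrix receptors 0.13 (15 of 25) and ligands, receptors and responsive genes of TGF-beta, the main growth factor that raises collagen synthesis, -0.045 (15 of 19). *Lamb2*, a laminin chain, gave 1310 and 1814 in GFP+, against 1285 and 1442 in GFP+/- and 426 in NT cells and rose in GFP+ against NT cells (log2 difference 1.86; limma, adjusted p = 0.0184). *Itgb1*, the common integrin chain, gave 14600 and 14415 in GFP+, against 11907 and 14861 in GFP+/- and 8166 in NT cells. *Tgfb2* and *Tgfb3*, ligands present in embryonic brain, gave 120 and 132 in GFP+, against 148 and 139 in GFP+/- and 134 in NT cells, and 262 and 398 in GFP+, against 387 and 422 in GFP+/- and 206 in NT cells.

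**Figure D4:**
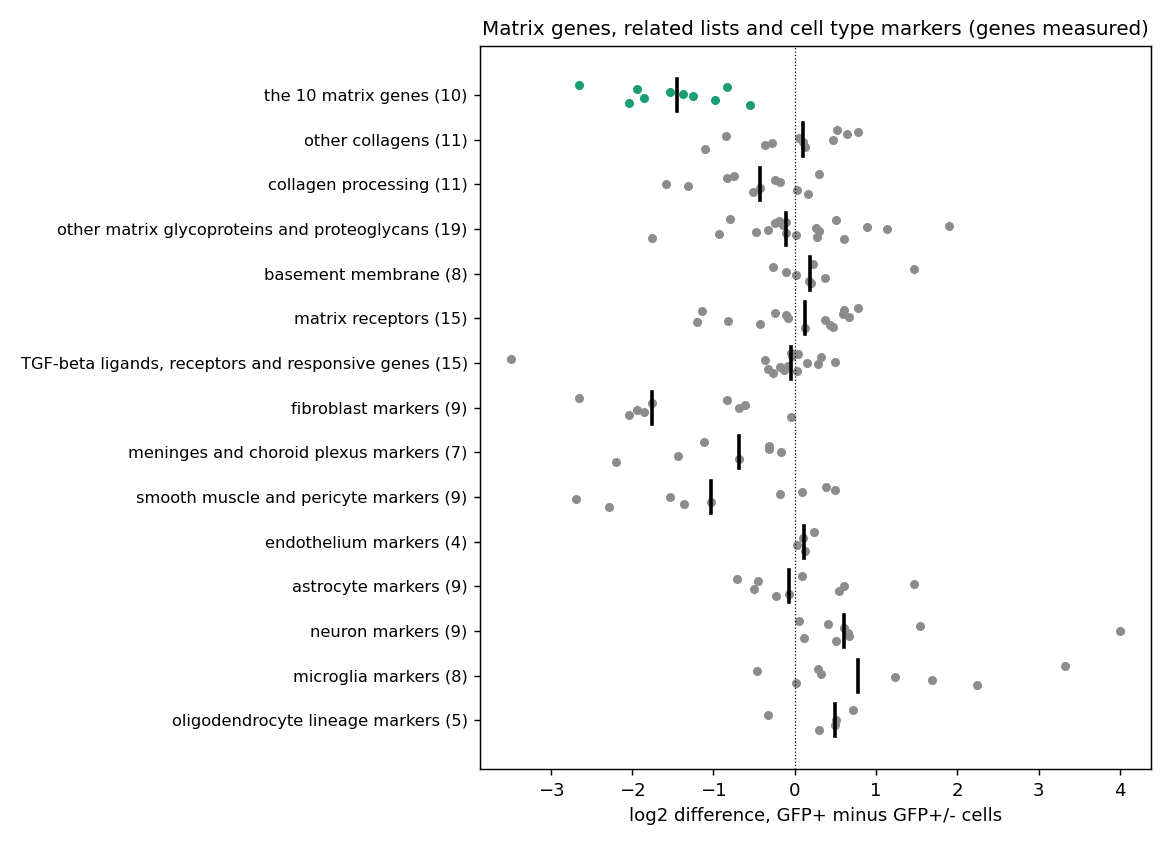
Log2 difference of GFP+ minus GFP+/- cells for every measured gene (points, brightest probe set) of the 10 matrix genes, related lists and cell type markers, with a black bar at the median and the number of genes in brackets. The medians of the 10 matrix genes (-1.45), the fibroblast markers (-1.75, with 5 of the 10 genes among them) and the smooth muscle and pericyte markers (-1.03) lie left of 0, and those of the neuron (0.60), microglia (0.78) and oligodendrocyte lineage markers (0.50) lie right of it.

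Some markers of several cell types were, like the members, lower in GFP+ than in GFP+/- cells, while NT cells stood differently from gene to gene. Of 10 fibroblast markers 9 were measured, 5 of which are members. Among the other 4, *Thy1* gave 175 and 201 in GFP+, against 694 and 574 in GFP+/- and 317 in NT cells, *Pdgfra* gave 250 and 363 in GFP+, against 465 and 508 in GFP+/- and 513 in NT cells, and *S100a4* gave 351 and 370 in GFP+, against 593 and 510 in GFP+/- and 225 in NT cells. *Vim*, which glia share, overlapped. The summed signal of 9 of 10 smooth muscle and pericyte markers was 2852 and 4872 in GFP+, against 12355 and 13903 in GFP+/- and 2186 in NT cells. Of these genes, 5 lay under the GFP+/- arrays and 2 above, against 15.4% and 30.4% of all probe sets. *Acta2* (smooth muscle actin) alone gave 1053 and 2375 in GFP+, against 6561 and 9059 in GFP+/- and 441 in NT cells. *Cspg4*, a pericyte marker among the bright probe sets, overlapped. It gave 150 and 217 in GFP+, against 183 and 228 in GFP+/- and 217 in NT cells. The mural markers *Pdgfrb*, *Myh11* and *Des* were dim, and *Pdgfrb* overlapped. The 2 above were *Myh11*, with 107 and 93.2 in GFP+ against 71.3 and 70.5 in GFP+/- cells, and *Des*, with 21.4 and 18.2 against 14.6 and 15.6. For 7 of 9 markers of meninges and choroid plexus the sum was 4501 and 7364 in GFP+, against 21461 and 20748 in GFP+/- and 5495 in NT cells, most of it from *Ttr*. Of these 7, 4 lay under the GFP+/- arrays and 0 above, against the same 15.4% and 30.4%. The bright *Crabp2*, with 261 and 209 in GFP+ against 269 and 256 in GFP+/- cells, overlapped, as did the dim *Ptgds* and *Slc6a13*. The part of each cell type in the members' differences was not tested. Endothelial markers (4 of 10 measured) summed to 362 and 482 in GFP+, against 357 and 422 in GFP+/- and 411 in NT cells. Those of astrocytes (9 of 10) summed to 16088 and 21496 in GFP+, against 17415 and 20189 in GFP+/- and 19963 in NT cells. Neuron markers (9 of 13) summed to 27926 and 23350 in GFP+, against 17581 and 19147 in GFP+/- and 33695 in NT cells. Microglia markers (8 of 10, all outside the brightest 41%) summed to 831 and 673 in GFP+, against 450 and 361 in GFP+/- and 722 in NT cells, and those of the oligodendrocyte lineage (5 of 8) to 1270 and 1105 in GFP+, against 998 and 833 in GFP+/- and 687 in NT cells. Set against the fibroblast name of the matrix genes, *Thy1*, *Pdgfra* and *S100a4* were lower in GFP+ than in GFP+/- cells, and *Vim* overlapped. *Acta2* and *Tagln* were lower as well, but the dim *Myh11* and *Des* were higher and the bright *Cspg4* overlapped. *Dcn* and *Lum* were not among the bright probe sets.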

How the data were processed

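RNA of GFP+ (2 arrays, pool of 6 experiments), GFP+/- (2 arrays, pool of 3) and NT cells (1 array, pool of 3) had been hybridized to Affymetrix rat arrays. The deposited values are linear MAS 5.0 signal intensities, one per probe set and array, which the authors had scaled per array. The number of arrays, which carry no read depth, limits the precision. Controls made up 59 of the 8799 probe sets and were not analysed. The platform annotation gave 1 symbol for 7006 of the rest, several for 308 and none for 1426. Signals under 1 were set to 1 before log2. Populations were compared with limma 3.58.1 (R 4.3.3). The fit took all 5 arrays, with an intensity trend and 2 residual degrees of freedom, and p was adjusted by Benjamini-Hochberg over 8740 probe sets at a threshold of 0.05. The limma fit alone was tried on simulated data, with noise drawn independently for each probe set. That check required only that the mean estimates matched the simulated log2 differences. Tables were made with pandas 2.3.3 and numpy 2.4.6 and plots with matplotlib 3.10.9, in Python 3.11.15. The genes and lists were chosen with earlier results of these data known. All members are named, with up to 4 of the brightest genes of each other list and the 5 nearest patterns, and further genes named were chosen after their values were seen. Alternatives were quantile normalization, equal medians, 16 added to signals, the brightest 41%, no trend, GFP+ and GFP+/- arrays only, a replicate block, each array left out, and 1 probe set per gene.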

Additional observations from a re-analysis of the deposited data

How the results depend on the processing

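For GFP+ against GFP+/- cells, limma called 0 of 26 probe sets, but 8 of 13 among the brightest 41%, and that 8 became 0 without GFP+ replicate 1 and 10 without any one of the other 3 transfected arrays, a check added after seeing the data. A fit with an array left out has 1 residual degree of freedom in place of 2, which limits every count from it. For GFP+ against NT cells, 2 calls became 0 with a prior without a trend. For GFP+/- against NT cells, 2 calls became 6 among the brightest 41%, 1 after quantile normalization, 0 without a trend and 4 with the replicate block. Replicate numbers are only numbers here, as the labels tie them to no shared culture and 2 pairs are too few to show pairing (correlation of same-numbered arrays 0.063 over all probe sets and 0.197 over the brightest 41%), and the block called 0 and 3 in the other comparisons. The members' median log2 difference was -1.53 among the brightest 41% and -1.45 with 1 probe set per gene for GFP+ against GFP+/- cells, and 0.86 and 0.94 for GFP+/- against NT cells. For GFP+ against NT cells it ran from -0.64 to -0.0067 with an array left out. With 1 probe set per gene, 10 of 10 did not overlap. Equal medians and quantile normalization moved the median of all probe sets for GFP+ against GFP+/- cells to -0.03 and -0.0045, against 0.13 as deposited, and that of members to -1.06 and -0.94. The sign turned with an array left out for GFP+ against NT cells in *Col1a1* (-0.67 to 0.47), *Col1a2* (-1.18 to 0.11), *Fstl1* (-0.33 to 0.44), *Bgn* (-0.31 to 0.24) and *Postn* (-0.40 to 0.32), and for GFP+ against GFP+/- cells in the dim *Col3a1* probe set (-0.20 to 0.64). Where no construction shows it, the cause was not tested. Dim probe sets, 13 of the 26, limit what can be said of *Dcn* and *Lum*.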
